A study of Mus musculus with 9 samples.

Results

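The genes of prostaglandin and leukotriene synthesis were followed in back skin of mice with DNCB-induced dermatitis, as the 10 genes named Ptgs1, Ptgs2, Ptges, Ptgds, Hpgds, Alox5, Alox5ap, Alox12, Alox15 and Ltb4r1. They were chosen by name, and all 10 were found among the 55401 genes of the count table and the 34637 genes of the FPKM table. The RNA came from male C57BL/6 mice aged 6 to 8 weeks. DNCB (2,4-dinitrochlorobenzene) is a small reactive molecule that raises a contact allergy, and all mice used here were painted with it on shaved skin, at 1% on day 1 and at 0.5% from day 4 to day 21. The Model group (4 libraries) was given water. The FJDHF group (5 libraries, the medium dose of the study) was given the Fangji Dihuang formulation, a decoction of 5 plant drugs, by mouth daily after day 7, and skin was taken on day 28. Skin without DNCB was not analysed here, so each level is one in inflamed skin.

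Both cyclooxygenases turn arachidonic acid, a fatty acid released from membranes by phospholipases A2, into prostaglandin H2. Ptgs1 is the form that many cells carry at a steady level and Ptgs2 the form induced in inflammation. Terminal synthases then make prostaglandin E2 (Ptges) or prostaglandin D2 (Ptgds and Hpgds). In the other branch, Alox5 with its helper protein Alox5ap starts the synthesis of leukotrienes, and Ltb4r1 is the high-affinity receptor that draws neutrophils and other leukocytes towards leukotriene B4. Alox12 and Alox15 are lipoxygenases that make hydroxylated fatty acids. In skin these lipids take part in redness, swelling, itch and the entry of leukocytes.

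The columns of the deposited tables carry codes that the paper does not explain. The 5 columns MR1, MR3, MR3_4, MR4_5 and MR5 were read as FJDHF libraries, and the 4 columns MXL1, MXL12, MXL3_4 and MXL_3 as Model libraries, because these numbers match the group sizes and MX are the Chinese initials for model. Each direction given here rests on that reading. Each column was counted as 1 library, and whether a code such as MR3_4 stands for RNA pooled from several mice is not stated. Total counts lay between 74648669 and 79474215. Markers of keratinocytes, hair follicle, fibroblasts, fat, skeletal muscle and 6 kinds of blood-derived cells were all detected, and no gene of these 12 lists was at 3 counts or fewer in every library. Among the 20817 genes that passed the filter on low counts, edgeR's quasi-likelihood test called none at an adjusted p under 0.05 with a change of at least 2-fold (0.0%). An unadjusted p under 0.05 was found for 326 genes (1.57%), DESeq2's Wald test called 2 of 20689 genes (0.00967%) and limma on log2(FPKM + 1) called 0.

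The promoters of the cyclooxygenase genes are shown because Ptgs2 varied most between libraries among the 10 genes and Ptgs1 varied little. Each is the 250 bases before the start of the gene, from RefSeq on build GRCm38.p6. Ptgs2 lies at chr1:150099781-150100030 on the plus strand and Ptgs1 at chr2:36230176-36230425 on the plus strand. Capitals mark matches to the letters searched on both strands.
Ptgs2: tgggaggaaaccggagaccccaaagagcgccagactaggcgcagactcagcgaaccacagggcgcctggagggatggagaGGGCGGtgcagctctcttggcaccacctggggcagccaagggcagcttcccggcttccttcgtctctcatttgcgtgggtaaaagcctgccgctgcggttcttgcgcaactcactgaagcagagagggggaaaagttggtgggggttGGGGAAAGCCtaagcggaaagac
Ptgs1: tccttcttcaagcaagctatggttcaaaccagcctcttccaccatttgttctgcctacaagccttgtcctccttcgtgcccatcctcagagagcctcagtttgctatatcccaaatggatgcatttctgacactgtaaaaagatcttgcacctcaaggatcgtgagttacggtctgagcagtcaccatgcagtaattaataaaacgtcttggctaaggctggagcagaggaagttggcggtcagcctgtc
The letters searched were TATAAA (the TATA box, in 12.4% of 32851 promoters of this length), TGACGT (the core of a CRE, 6.47%), CACGTG (an E-box, 6.02%), TGANTCA (AP-1, 6.75%), an NF-kB form of GGG and CC with any 5 bases between them (45.8%), GGGCGG (a GC box, 32.7%) and CCAAT (33.8%). In Ptgs2 a GC box starts at base -170 and an NF-kB match at base -23, counted from the start of the gene, and these matches do not overlap. The Ptgs1 sequence held no match to any of the letters. Its GC content was 48.0%, that of Ptgs2 was 61.6%, and the median over all promoters was 52.4%. A match of letters is a description of the sequence and was not tested as a binding site. Bases after the start of the gene or farther upstream were not searched, so letters missing here may still be found there. Promoters of 8 of the 10 genes were in the table, without Alox5ap and Alox15. Among the others, NF-kB matches were also found in Ptges, Ptgds, Alox5 and Alox12, and GC boxes in Ptges, Alox5, Alox12 and Ltb4r1. Hpgds, like Ptgs1, held neither. A link between these matches and the variation between libraries was not tested.

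On the FPKM scale, which is corrected for gene length, Alox5ap had the highest median level of the 10 genes over the 9 libraries, 22.2. Ptges followed with 12.6 and Ptgs1 with 10.1. Hpgds had 4.31, Ltb4r1 3.54, Alox5 2.35, Alox15 2.15, Alox12 2.14, Ptgds 2.06 and Ptgs2 1.46. The first places were set apart in nearly every library, since Alox5ap lay above Ptges in 9 of 9 libraries, Ptges above Ptgs1 in 8 and Ptgs1 above Hpgds in 9. The lower places were not. Alox5 exceeded Alox15 in only 2 libraries although its median was higher, and each of Alox15, Alox12 and Ptgds exceeded the next gene in 5 of 9.

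None of the 10 genes passed the test between the groups. With edgeR's quasi-likelihood test the number called was 0 of 10, at 0.0% of all tested genes, and the number with an unadjusted p under 0.05 was also 0, beside 1.57% of all tested genes (0.773% higher in the FJDHF group). DESeq2, which gave no p for Ptgs2, and limma also found 0 of the 10 at an unadjusted p under 0.05. The log2 fold change (FJDHF against Model) was above 0 for 8 of the 10, with a median of 0.25, beside 44.1% of all tested genes and their median of -0.032. In all 10 genes the libraries of the groups overlapped, where 0.514% of the tested genes had groups without overlap. A two-sided exact permutation test of group labels, with 126 arrangements, gave a p under 0.05 for 0 of the 10 and for 1.93% of all tested genes. Its smallest possible p is 0.00794, and adjusted over all tested genes every permutation p was 1.00.

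**Figure D1:**
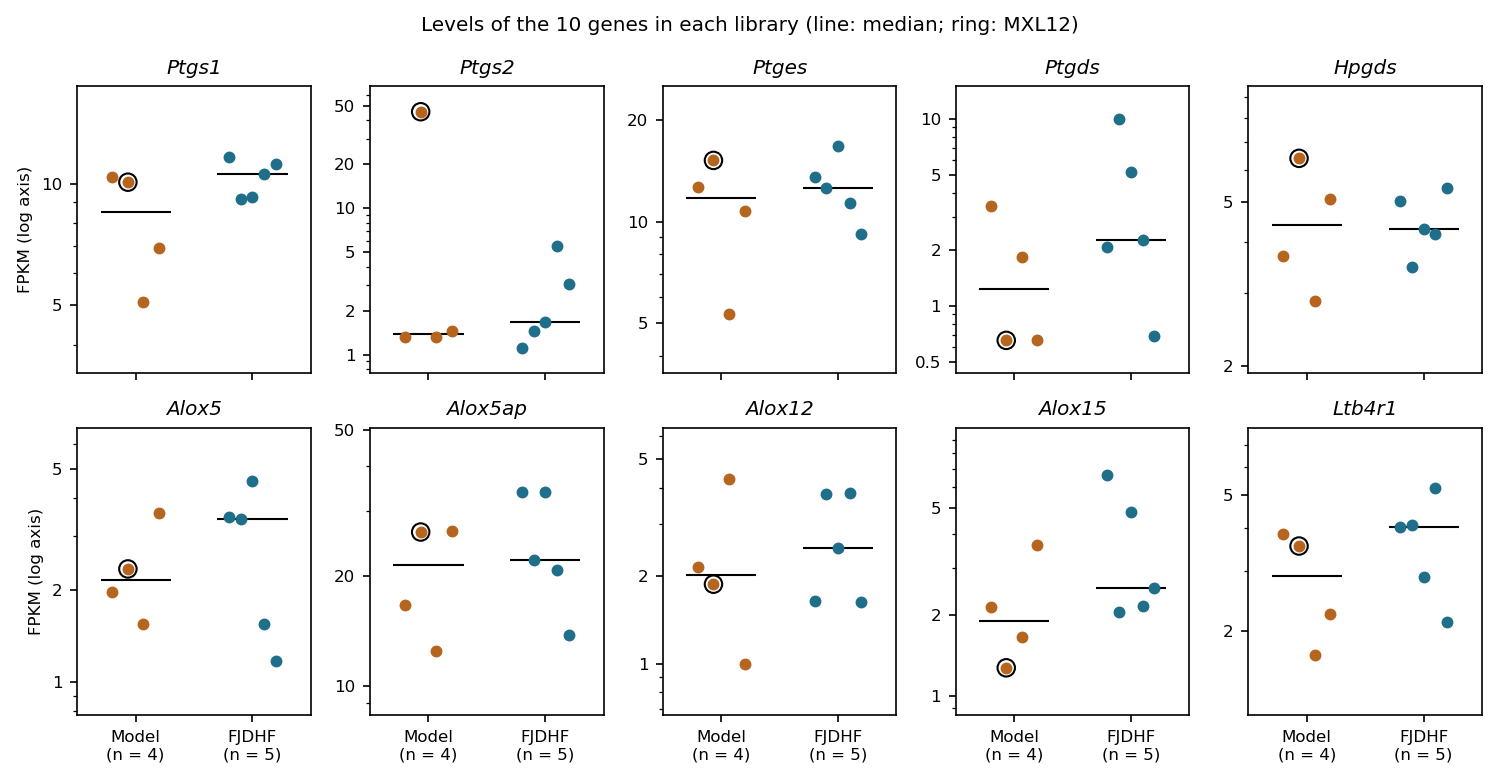
FPKM of each of the 10 genes in the 4 Model and the 5 FJDHF libraries, on a log axis of its own for each gene, with a line at the median of each group and a ring around MXL12. The groups overlap in every panel, and for Ptgs2 the Model library MXL12 stands at 45.8 while the other 3 Model libraries lie between 1.31 and 1.45.

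Ptgs2 (ENSMUSG00000032487, chromosome 1, 150100031 to 150108227 in GRCm38) had the widest spread. In the Model group it had 1.31 FPKM in MXL1, 45.8 in MXL12, 1.31 in MXL3_4 and 1.45 in MXL_3. In the FJDHF group it had 1.12 in MR1, 1.45 in MR3, 1.67 in MR3_4, 5.56 in MR4_5 and 3.02 in MR5. Thus 1 Model library was far above all others, and the other 3 lay inside the range of the FJDHF libraries. MXL12 held 16770 Ptgs2 counts, whereas the smallest count in the Model group was 489. In CPM, which are counts scaled to library size and composition, the Model mean was 60.5 with an SD of 108 over 4 libraries, and the FJDHF mean was 12.1 with an SD of 8.38 over 5.

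The log2 fold change of Ptgs2 was -2.32 (SE 1.09, 95% interval -4.74 to 0.10, adjusted p = 1.00, edgeR). Without MXL12 it was 0.87, so its direction rests on that library. On mean log2(CPM + 0.5) the difference was -0.64 (two-sided exact permutation p = 0.778) and 0.60 without MXL12 (exact permutation p = 0.286). MXL12 was also the library with the highest summed level of 10 neutrophil markers, 529 CPM, against 27.9 to 114 CPM in the other Model libraries and 41.4 to 153 CPM in the FJDHF libraries. All 10 of these markers had a log2 fold change below 0, as did 11631 of the 20817 tested genes. With edgeR, 1 of the 10 had an unadjusted p under 0.05 (beside 0.793% of all tested genes with a lower level in the FJDHF group). MXL1, also a Model library, had the lowest sum of all 9 libraries, and whether the direction of the markers rests on MXL12 was not tested. The part of neutrophils in the Ptgs2 level was not tested. In whole skin, more cells of a type and more RNA per cell cannot be told apart. In MR4_5, the second highest library for Ptgs2, the neutrophil sum was the highest of its group, 153 CPM. The order was otherwise not shared, since MXL_3 and MR1, with neutrophil sums of 114 and 115 CPM, had 1.45 and 1.12 FPKM of Ptgs2. On mean log2(CPM + 0.5) the second highest library for the neutrophil markers was MXL_3, at 3.13, above MR4_5 at 2.69.

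The 3 tested genes with a profile closest to that of Ptgs2 were Cxcr2, Nlrp3 and Slfn4. Closeness was the root mean square difference over the 9 libraries between profiles of log2(CPM + 0.5), each centred on its mean, and it was 0.44 for Cxcr2, a chemokine receptor of neutrophils that is itself on the marker list. It was 0.48 for Nlrp3, the sensor of an inflammasome, and 0.51 for Slfn4. The standard deviation of Ptgs2 itself was 1.67 on this scale. The mean of the 10 neutrophil markers was at 1.16 from Ptgs2 and lay on the same side of the mean in 6 of 9 libraries. All 3 genes were highest in MXL12, with 80.2, 43.9 and 118 CPM, where the next library had 12.5, 5.25 and 32.6 CPM.

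Ptgs1 (ENSMUSG00000047250, chromosome 2, 36230426 to 36252272) showed no such library. It had 10.4 FPKM in MXL1, 10.1 in MXL12, 5.09 in MXL3_4 and 6.94 in MXL_3, and in the FJDHF group 11.6 in MR1, 9.14 in MR3, 9.25 in MR3_4, 10.6 in MR4_5 and 11.2 in MR5. The lowest values were those of MXL3_4 and MXL_3, and the other Model libraries lay among the FJDHF libraries. The highest library exceeded the lowest by 2.29 times, whereas this ratio was 41.1 for Ptgs2. For Ptgs1 the log2 fold change was 0.33 (SE 0.21, 95% interval -0.15 to 0.80, adjusted p = 1.00, edgeR), and it was 0.16 without MXL3_4 and 0.45 without MXL1. An exon of Gm43621 on the opposite strand covers 3.81% of the exon bases of Ptgs1, and whether counting used the strand is not given in the sources used here.

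Of the cyclooxygenases, Ptgs1 had the higher FPKM in all libraries but MXL12. The ratio of Ptgs2 to Ptgs1 lay between 0.0958 and 0.527 in the FJDHF libraries. In the Model libraries it ranged from 0.126 to 4.54, with the upper value in MXL12.

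**Figure D2:**
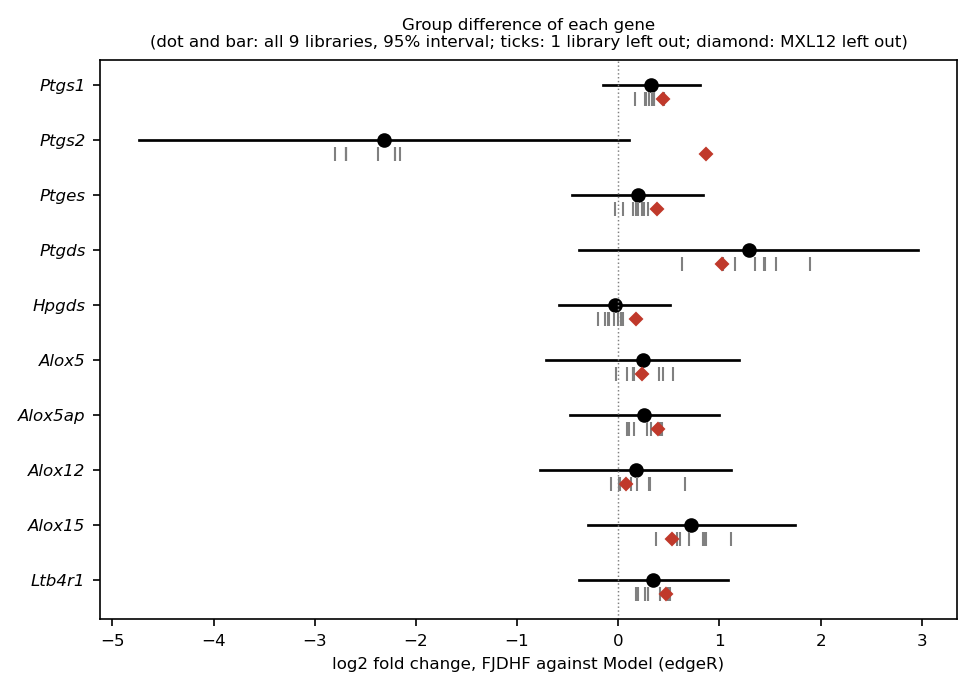
Log2 fold change of each gene (FJDHF against Model, horizontal axis) from edgeR, with dots and bars for the estimate and 95% interval over 9 libraries, ticks for the values with 1 library left out and a diamond for the value without MXL12. All 10 intervals include 0, and only the Ptgs2 diamond lies far from its ticks, at 0.87 against an estimate of -2.32.

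Among the terminal synthases, Ptges (ENSMUSG00000050737, chromosome 2, 30889471 to 30903297), the inducible synthase of prostaglandin E2, had 12.7 FPKM in MXL1, 15.2 in MXL12, 5.33 in MXL3_4 and 10.8 in MXL_3. The FJDHF libraries had 13.6 in MR1, 12.6 in MR3, 16.8 in MR3_4, 11.3 in MR4_5 and 9.20 in MR5. Ptges was thus at its second highest in MXL12, where Ptgs2 was highest, but within the range of the FJDHF libraries. Its lowest value was in MXL3_4, as for Ptgs1. Between the groups, Ptges had a log2 fold change of 0.19 (SE 0.29, 95% interval -0.46 to 0.84, adjusted p = 1.00, edgeR), and it was -0.034 without MXL3_4 and 0.38 without MXL12.

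The 2 synthases of prostaglandin D2 had different profiles. Ptgds (ENSMUSG00000015090, chromosome 2, 25466709 to 25470046), the lipocalin-type enzyme, varied 15.3-fold between libraries. It had 3.40 FPKM in MXL1, 0.654 in MXL12, 1.82 in MXL3_4 and 0.654 in MXL_3. In the FJDHF group it had 2.06 in MR1, 9.98 in MR3, 5.22 in MR3_4, 2.24 in MR4_5 and 0.689 in MR5. The highest 2 libraries were FJDHF libraries, but MR5 of the same group was close to the lowest Model libraries. The log2 fold change was 1.29 (SE 0.75, 95% interval -0.38 to 2.96, adjusted p = 1.00, edgeR), and it was 0.63 without MR3 and 1.90 without MXL1. The level difference on log2(CPM + 0.5) was 0.95 (exact permutation p = 0.222). The genes with the profiles closest to Ptgds were Tmem54, Psors1c2 and Gm2274, at root mean square differences of 0.48, 0.51 and 0.54, and all 3 were also highest in MR3.

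Hpgds (ENSMUSG00000029919, chromosome 6, 65117293 to 65144908), the haematopoietic enzyme of mast cells, macrophages and some T cells, varied only 2.22-fold. The Model libraries had 3.70 FPKM in MXL1, 6.40 in MXL12, 2.88 in MXL3_4 and 5.10 in MXL_3, and the FJDHF libraries 5.04 in MR1, 3.49 in MR3, 4.31 in MR3_4, 4.19 in MR4_5 and 5.42 in MR5. The highest and the lowest library were both in the Model group. For Hpgds the log2 fold change was -0.036 (SE 0.25, 95% interval -0.59 to 0.51, adjusted p = 1.00, edgeR), and it ranged from -0.20 without MXL3_4 to 0.17 without MXL12. Ptgds exceeded Hpgds in 2 of 9 libraries on the FPKM scale.

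Of 12 lists of marker genes, the mean log2(CPM + 0.5) of the 10 mast cell markers had the profile closest to that of Hpgds, with a root mean square difference of 0.11. On this scale both were highest in MXL12 and lowest in MXL3_4. The mast cell markers summed to 264 to 536 CPM in the FJDHF libraries and to 306 to 588 CPM in the Model libraries, and 5 of the 10 had a log2 fold change above 0. The next list for Hpgds, eosinophil markers, was at 0.35. The part of mast cells in the Hpgds level was not tested.

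Alox5ap (ENSMUSG00000060063, chromosome 5, 149264767 to 149288153), which presents arachidonic acid to Alox5, had 16.6 FPKM in MXL1, 26.4 in MXL12, 12.5 in MXL3_4 and 26.5 in MXL_3. The FJDHF libraries had 33.9 in MR1, 22.2 in MR3, 33.8 in MR3_4, 20.8 in MR4_5 and 13.8 in MR5. The highest 2 values were in the FJDHF group, and MR5 was below 3 of the 4 Model libraries. Between the groups, Alox5ap had a log2 fold change of 0.26 (SE 0.33, 95% interval -0.48 to 1.00, adjusted p = 1.00, edgeR), and it was 0.084 without MXL3_4 and 0.43 without MXL_3. An exon of Gm19719 on the opposite strand covers 13.3% of the exon bases of Alox5ap, so reads of that transcript may be included.

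Alox5 (ENSMUSG00000025701, chromosome 6, 116410077 to 116461178) had 1.97 FPKM in MXL1, 2.35 in MXL12, 1.55 in MXL3_4 and 3.58 in MXL_3. In the FJDHF group it had 3.47 in MR1, 3.42 in MR3, 4.54 in MR3_4, 1.55 in MR4_5 and 1.17 in MR5. Of the FJDHF libraries, MR3_4 was above the range of the Model group, MR4_5 and MR5 were at or below its lower end, and MR1 and MR3 lay inside it. The log2 fold change was 0.24 (SE 0.43, 95% interval -0.72 to 1.20, adjusted p = 1.00, edgeR), and it was -0.022 without MR3_4 and 0.54 without MXL_3. Alox5ap exceeded Alox5 in all 9 libraries, by 6.48 to 13.4 times on the FPKM scale.

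For both Alox5 and Alox5ap the closest of the 12 marker profiles was that of macrophages, at root mean square differences of 0.23 and 0.23. Alox5 and the macrophage markers lay on the same side of their means in 9 of 9 libraries, and Alox5ap did so in 7. The 10 macrophage markers summed to 760 to 1569 CPM in the FJDHF libraries and to 620 to 1411 CPM in the Model libraries. All 10 had a log2 fold change above 0 (beside 44.1% of all tested genes). With edgeR, 1 of them had an unadjusted p under 0.05 (beside 0.773% of all tested genes with a higher level in the FJDHF group). The difference between the Alox5 and Alox5ap profiles themselves was 0.31, and their 3 highest libraries were the same, MR3_4, MR1 and MXL_3. The part of macrophages in these levels was not tested. Among the other genes, the closest list was that of platelets for Ptges (0.32) and Ltb4r1 (0.39). It was that of mast cells for Ptgs1 (0.34) and that of hair follicle for Ptgds (0.84). Whether the closest list marks the cells that hold the RNA was not tested for any gene.

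**Figure D3:**
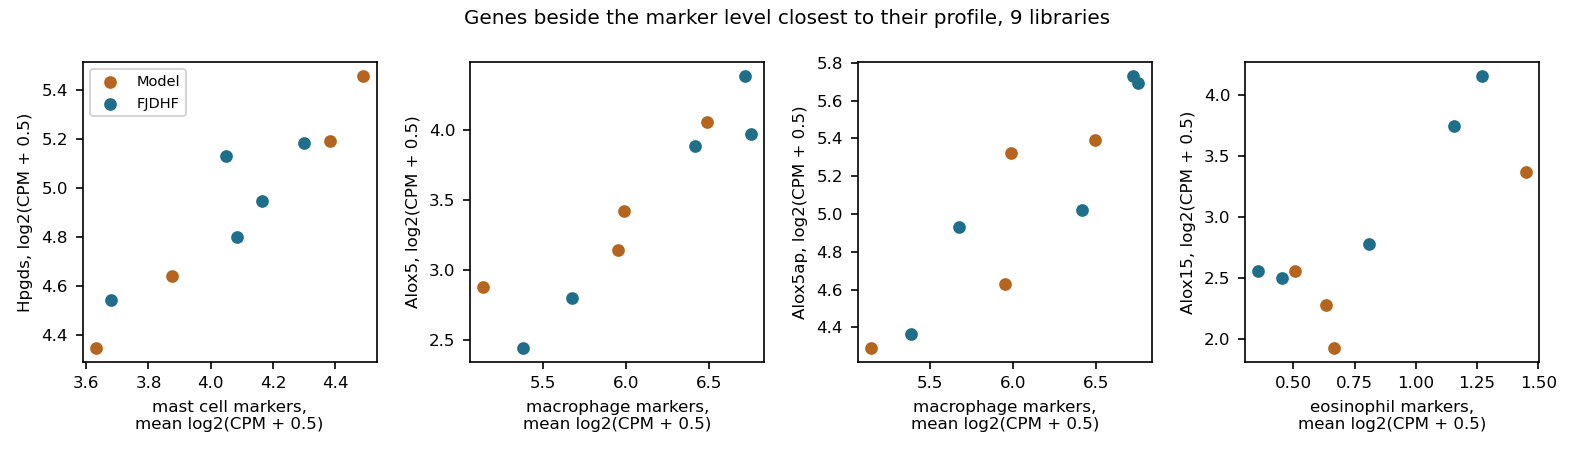
Log2(CPM + 0.5) of Hpgds, Alox5, Alox5ap and Alox15 (vertical axes) against the mean log2(CPM + 0.5) of the marker list closest to each (horizontal axes), with 1 point for each of the 9 libraries coloured by group. Hpgds and the mast cell markers share their highest and lowest library, and Model and FJDHF points are mixed in all 4 panels.

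Alox15 (ENSMUSG00000018924, chromosome 11, 70344152 to 70352031) is a lipoxygenase known from eosinophils and resident macrophages. It had 2.14 FPKM in MXL1, 1.27 in MXL12, 1.66 in MXL3_4 and 3.64 in MXL_3, and in the FJDHF group 6.66 in MR1, 2.06 in MR3, 4.82 in MR3_4, 2.15 in MR4_5 and 2.52 in MR5. MR1 and MR3_4 were the highest, and the other 3 FJDHF libraries lay within the range of the Model group. Between the groups, Alox15 had a log2 fold change of 0.72 (SE 0.46, 95% interval -0.30 to 1.75, adjusted p = 1.00, edgeR), and the exact permutation p was 0.238. The fold change was 0.38 without MR1 and 1.12 without MXL_3 on the log2 scale, and the unadjusted p in edgeR without MXL_3 was 0.0401. Its lowest library was MXL12, the highest for Ptgs2.

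The 5 eosinophil markers had the profile closest to that of Alox15 among the 12 lists, at 0.45. The standard deviation of Alox15 itself was 0.73 on this scale. Alox15 and the eosinophil markers lay on the same side of their means in 9 of 9 libraries. T cell markers were nearly as close, at 0.46, and so were macrophage markers, at 0.49 and on the same side in 8 of 9. The summed level of the eosinophil markers was low, 5.73 to 18.9 CPM in the FJDHF libraries and 7.10 to 14.8 CPM in the Model libraries. Of the 5, 4 passed the filter on low counts, 3 with a log2 fold change above 0 and 1 below. With edgeR, 1 had an unadjusted p under 0.05, with a lower level in the FJDHF group (beside 0.793% of all tested genes). The part of eosinophils, T cells or macrophages in the Alox15 level was not tested. Among all tested genes the profiles closest to Alox15 were those of Cela1, Igkv12-89 and Slamf8, at 0.27, 0.29 and 0.30. Igkv12-89, an immunoglobulin segment, had at most 1.41 CPM.

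Alox12 (ENSMUSG00000000320, chromosome 11, 70241457 to 70255353), the lipoxygenase of platelets that skin also carries, had 2.14 FPKM in MXL1, 1.87 in MXL12, 4.28 in MXL3_4 and 1.00 in MXL_3. The FJDHF libraries had 1.64 in MR1, 3.81 in MR3, 2.49 in MR3_4, 3.83 in MR4_5 and 1.62 in MR5. The highest and the lowest library were both in the Model group. MXL3_4, the highest for Alox12, was the lowest for 5 of the 10 genes. For Alox12 the log2 fold change was 0.17 (SE 0.43, 95% interval -0.77 to 1.12, adjusted p = 1.00, edgeR), and it was -0.070 without MXL_3 and 0.66 without MXL3_4. The closest marker profile was that of hair follicle genes, at 0.60, followed by basal (0.65) and differentiated keratinocytes (0.69). The standard deviation of Alox12 itself was 0.65 on this scale, so none of the lists had a similar profile. Platelet markers summed to 6.23 to 21.0 CPM in the FJDHF and 6.53 to 24.3 CPM in the Model libraries.

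Ltb4r1 (ENSMUSG00000046908, chromosome 14, 55765962 to 55768494) had 3.84 FPKM in MXL1, 3.54 in MXL12, 1.71 in MXL3_4 and 2.24 in MXL_3. In the FJDHF group it had 4.03 in MR1, 4.07 in MR3, 2.88 in MR3_4, 5.23 in MR4_5 and 2.13 in MR5. The receptor for leukotriene B4 was thus not at an extreme in MXL12, the library with the highest neutrophil markers. Between the groups, Ltb4r1 had a log2 fold change of 0.35 (SE 0.33, 95% interval -0.39 to 1.08, adjusted p = 1.00, edgeR), and it was 0.17 without MXL3_4 and 0.51 without MXL1.

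**Figure D4:**
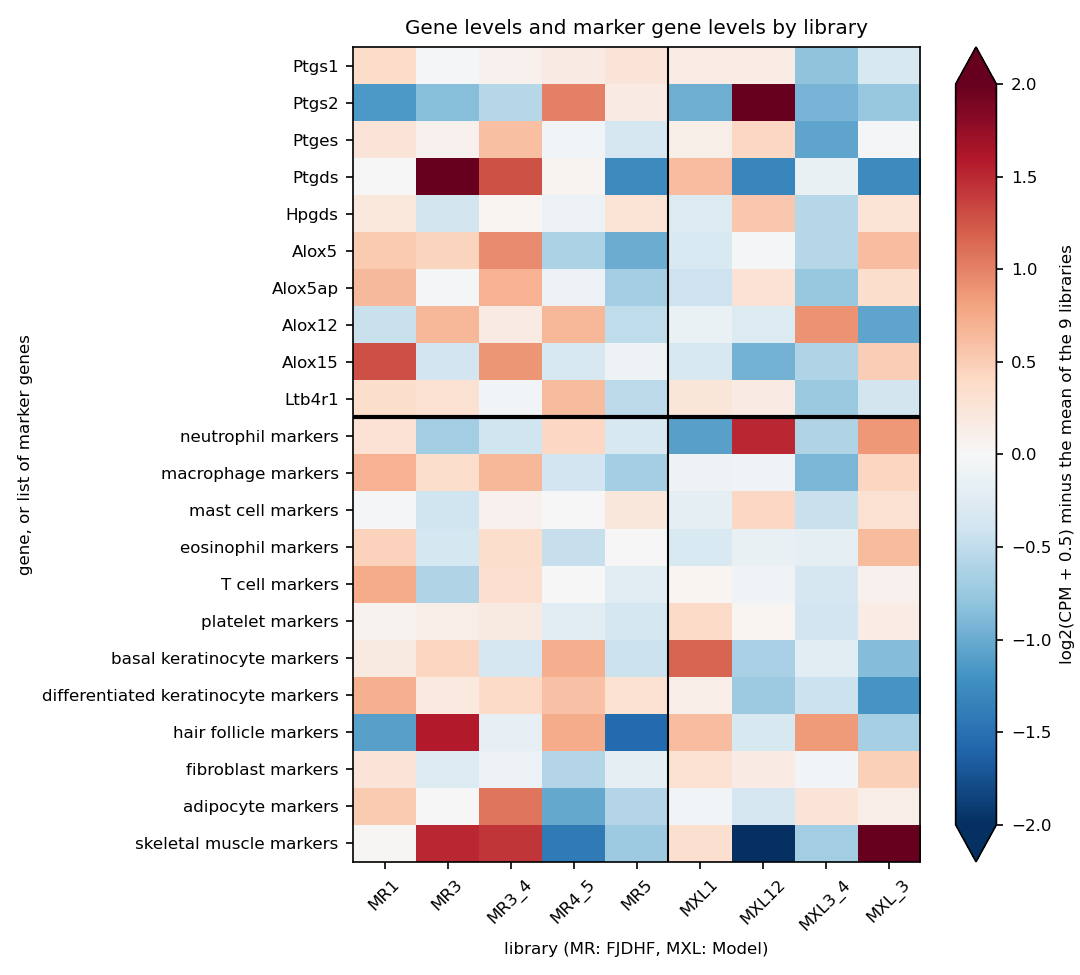
Log2(CPM + 0.5) minus its mean over the 9 libraries for the 10 genes (upper rows) and, as a mean over each list, for 12 lists of marker genes (lower rows), with libraries as columns and colours cut at -2 and 2. Ptgs2 and the neutrophil markers are both highest in MXL12, and 5 of the 10 genes are lowest in MXL3_4.

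Across the 10 genes the libraries were not ordered by group. MR3_4 was the highest library for 3 genes, MR1 for 2 and MXL12 for 2. MXL3_4 was the lowest for Ptgs1, Ptges, Hpgds, Alox5ap and Ltb4r1, and MXL12 was the lowest for Ptgds and Alox15. The median deviation of the 10 genes from their means was 0.39 in MR3_4 and 0.30 in MR1, and it was -0.42 in MR5 and -0.67 in MXL3_4. The highest 2 of these medians were thus in FJDHF libraries, and the lowest 2 were in 1 Model and 1 FJDHF library. On mean log2(CPM + 0.5), MXL3_4 was also lowest for the macrophage, mast cell and platelet markers. In summed CPM it was lowest for macrophages (620), whereas MR3 was lowest for mast cells (264 against 333 in MXL3_4) and MR5 for platelets (6.23 against 6.53). The part of these cells in the values was not tested.

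The other genes of the pathway were taken from lists of phospholipases, further synthases, lipoxygenases, breakdown enzymes, transporters and receptors. Of 54 symbols listed, 51 were in the table and 48 were tested. The number called at an adjusted p was 0. An unadjusted p under 0.05 with edgeR was found for 5 of the 48 (10.4%, beside 1.57% of all tested genes), all 5 with a higher level in the FJDHF group (beside 0.773% of all tested genes), and the median log2 fold change of the 48 was 0.065. This number depended on single libraries. It was 10 without MXL1, 3 without MR1, MR4_5 or MXL_3, and 2 without MXL3_4. The groups overlapped for each of the 48 genes.

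The 5 genes were Pla2g2d, Mgst2, Alox12b, Pla2g4f and Ptgr1. Pla2g2d, a secreted phospholipase of dendritic cells and macrophages, had 7.15 to 20.0 CPM in the 5 FJDHF libraries and 4.43 to 8.20 CPM in the 4 Model libraries, which gave a log2 fold change of 0.95 (SE 0.32). Mgst2, a microsomal glutathione transferase that can make leukotriene C4, had 7.27 to 20.1 CPM in the FJDHF and 6.71 to 9.01 CPM in the Model libraries, with 0.89 as log2 fold change (SE 0.29). These are the 2 genes of the 5 whose unadjusted p in edgeR stayed under 0.05 whichever of the 9 libraries was left out. Neither passed the test, as both had an adjusted p of 1.00 (edgeR).

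Alox12b, the lipoxygenase that builds the lipid barrier of the epidermis, had 23.2 to 36.4 CPM in the FJDHF libraries and 10.1 to 28.0 CPM in the Model libraries. The highest Model value was that of MXL1, and the other 3 Model libraries lay between 10.1 and 11.5 CPM. The log2 fold change was 0.90 (SE 0.32) and the two-sided exact permutation p was 0.0317 (adjusted p = 1.00). Pla2g4f, a cytosolic phospholipase, had a log2 fold change of 0.79 and Ptgr1, which acts on leukotriene B4 and prostaglandin metabolites, of 0.51. Their unadjusted p stayed under 0.05 in 3 and 4 of the 9 fits with a library left out, and that of Alox12b in 6. All 9 markers of differentiated keratinocytes also had a log2 fold change above 0 (beside 44.1% of all tested genes). For 5 of the 9 the unadjusted p in edgeR was under 0.05, with a higher level in the FJDHF group (beside 0.773% of all tested genes). They summed to 7648 to 14690 CPM in the FJDHF libraries and to 2891 to 8582 CPM in the Model libraries. In summed CPM the order of libraries was not shared, since MR5 had the highest sum but the lowest FJDHF levels of Alox12b and Pla2g4f (23.2 and 31.0 CPM). On mean log2(CPM + 0.5) these markers were at 8.49 to 9.00 in the FJDHF libraries and at 7.11 to 8.43 in the Model libraries. On that scale they were highest in MR1, as was Alox12b, and lowest in MXL_3, as was Pla2g4f. Alox12b was lowest in MXL3_4, and Pla2g4f was highest in MR4_5. Of 7 basal keratinocyte markers, 3 had a log2 fold change above 0 and 4 below. The part of keratinocytes in the levels of these pathway genes was not tested.

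**Figure D5:**
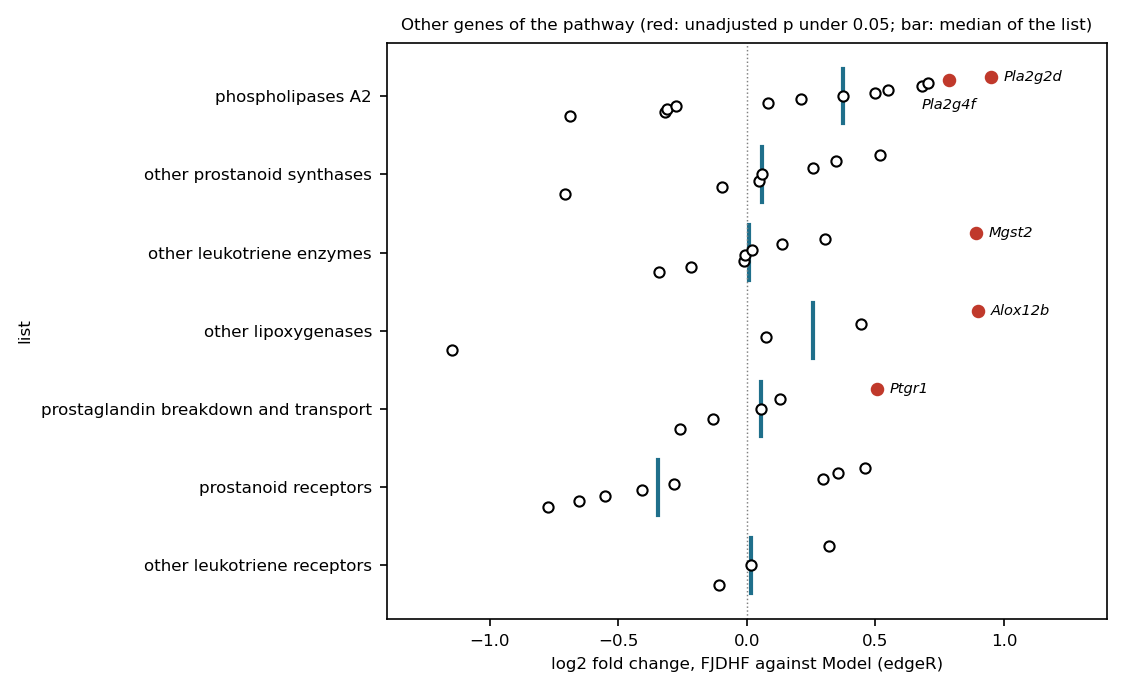
Log2 fold change (FJDHF against Model, horizontal axis) of the 48 other pathway genes tested, by list, with red points for an unadjusted p under 0.05 in edgeR and a bar at the median of each list. The 5 red points lie between 0.51 and 0.95, and none of the 48 genes passed at an adjusted p.

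By role, 13 of 15 phospholipases A2 were tested, 9 with a log2 fold change above 0 and a median of 0.37. The most abundant were Pla2g2f, a secreted enzyme of the epidermis, with a mean of 89.2 FPKM over the 9 libraries and a log2 fold change of 0.68, and Pla2g4f with 10.8 FPKM. Among 7 other prostanoid synthases the most abundant were Ptges3, the cytosolic prostaglandin E synthase, with 51.0 FPKM, and Akr1c18 with 16.5 FPKM, and their log2 fold changes were 0.057 and 0.52. The list had a median of 0.057.

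Among 8 other leukotriene enzymes, Dpep1, a dipeptidase that cleaves leukotriene D4, had 55.2 FPKM and Mgst3 31.7 FPKM, with log2 fold changes of 0.14 and 0.31. The median of this list was 0.0070, with 4 genes above and 4 below 0. Of the 4 other lipoxygenases, Alox12e had the highest mean, 15.2 FPKM, with a log2 fold change of -1.15 (SE 0.75). Its level was 186 CPM in MXL1 and 10.4 to 33.0 CPM in the other Model libraries. Alox12b had 8.83 FPKM, and the median of the list was 0.26.

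Hpgd, which inactivates prostaglandins, had 48.4 FPKM and a log2 fold change of 0.054, and Ptgr1 had 19.2 FPKM. The list of 5 genes of breakdown and transport had a median of 0.054. Of 9 prostanoid receptors 8 were tested, 3 with a log2 fold change above 0 and 5 below, and their median was -0.35. The most abundant were Ptgfr, the receptor of prostaglandin F2, with 5.00 FPKM and a log2 fold change of -0.55, and Ptger3, a receptor of prostaglandin E2, with 4.99 FPKM and 0.36. Ptgfr was highest in MXL12, at 73.4 CPM against 27.1 to 40.4 CPM in the other Model libraries. Of the 3 other leukotriene receptors, Cysltr1 had 4.22 FPKM and Ltb4r2 1.75 FPKM, with log2 fold changes of -0.11 and 0.32. None of the genes named in these lists, other than the 5 above, had an unadjusted p under 0.05 with edgeR.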

How the data were processed

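Polyadenylated RNA of back skin was made into strand-specific libraries by the authors and read in pairs. They deposited, per the labels and the authors' tables, raw read counts per gene, and FPKM values that they scaled for gene length and depth, with gene names and positions. In the FPKM table, 9 further columns, 1 for each library, were not used. Per the labels, the build was mm10 and the tools included HISAT, StringTie and DESeq2, and versions, annotation release and strand setting are not given in the sources used here. Total counts were 74648669 to 79474215.

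Counts were analysed with edgeR 4.0.16 in R 4.3.3 (filterByExpr, TMM, quasi-likelihood test, Benjamini-Hochberg adjustment over all tested genes, no covariate), and a call needed at least a 2-fold change with an adjusted p under 0.05. CPM used TMM-scaled library sizes. The 95% intervals used the t distribution with edgeR's degrees of freedom. Levels on log2(CPM + 0.5) were compared with a two-sided exact permutation test, adjusted over all tested genes. Marker levels are means of log2(CPM + 0.5) or sums of CPM. The steps were tested on simulated data. Exon overlaps came from GENCODE M21 (GRCm38), where 9 of the 10 genes have the same start and end, and promoters from RefSeq. A name carried by 2 identifiers, Dpep2, was read from the one with more counts.

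Alternatives were DESeq2's size factors, DESeq2 1.42.0, limma 3.58.1 on log2(FPKM + 1), no filter, at least 10 counts in every library, a replicate block, each library left out, a pseudocount of 0.1, FPKM and ranks. The 10 genes, the lists and tests were chosen with earlier results of these data known. Named were the 10 genes, pathway genes with an unadjusted p under 0.05 or groups without overlap, the 2 most abundant genes of each list by mean FPKM, and the 3 closest profiles of the 3 genes with the largest standard deviation. Codes were not matched to single mice, so p-values measure the spread between libraries.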

Additional observations from a re-analysis of the deposited data

Results flagged for a closer look

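Libraries far from the others of their group were sought with Dixon's test, which relates the distance from the highest or lowest library to the next one to the span of all libraries in that group. It was run for the 10 genes, 16 named pathway genes, 12 marker levels and the total count in both groups. Of 78 such comparisons 2 passed the critical value, where 3.9 are expected by chance. Both ratios were taken on log2(CPM + 0.5). For Ptgs2 in MXL12 the ratio was 0.956 among the 4 Model libraries, with 7.80 against 2.74 to 2.96 in the other 3. In CPM these levels were 222 against 6.19 to 7.29. For Alox12b in MXL1 it was 0.875, with 4.83 against 3.41 to 3.59 in the other 3 Model libraries. In CPM these were 28.0 against 10.1 to 11.5.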

How the results depend on the processing

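The number of genes called was 2 with DESeq2's Wald test and 0 with each other alternative, and none of the 10 genes was called under any alternative that gave it a p. The number of genes with an unadjusted p under 0.05 was 905 without a filter on low counts, and it ranged from 217 without MR4_5 to 734 without MXL1 when single libraries were left out. The same range was 0 to 2 for the 10 genes, with 1 without MR4_5 (Ptgs2), MR5 (Ptgds) or MXL3_4 (Ptgs2) and 2 without MXL1 (Ptgs2 and Ptgds) or MXL_3 (Ptgs2 and Alox15), and 2 to 10 for the other pathway genes. Of 270 values of single genes under the alternatives, 21 were on the other side of 0. With single libraries left out, the log2 fold change ranged from -2.80 to 0.87 for Ptgs2, -0.034 to 0.38 for Ptges, -0.20 to 0.17 for Hpgds, -0.022 to 0.54 for Alox5 and -0.070 to 0.66 for Alox12, and the difference in mean log2(CPM + 0.5) from -1.08 to 0.60, -0.058 to 0.43, -0.18 to 0.20, -0.098 to 0.39 and -0.056 to 0.59 in the same order. The other 5 genes stayed above 0 on both scales, with log2 fold changes of 0.16 to 0.45 for Ptgs1, 0.63 to 1.90 for Ptgds, 0.084 to 0.43 for Alox5ap, 0.38 to 1.12 for Alox15 and 0.17 to 0.51 for Ltb4r1. Hpgds was at 0.026 with limma on log2(FPKM + 1). By ranks, the difference in mean rank was 0.45 for Ptgs2 and -0.45 for Hpgds. A replicate block from the numbers that codes of both groups share gave 0.030 for Ptgs2 and 0.16 for Hpgds and no call. MXL12, MR4_5 and MR5 share no number, so each formed a block of its own and did not bear on the blocked group difference. That difference rests on MXL1 with MR1, MXL_3 with MR3 and MXL3_4 with MR3_4. The numbers are not stated to mark shared mice or days, and the deviations of same-numbered libraries correlated at 0.22, 0.12 and -0.22, so the blocked fit was not taken as a paired analysis. The cause of these moves was not tested. All 10 genes had at least 87 counts in every library, and the coefficient of variation between libraries that edgeR estimated over all genes was 0.477.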
